A study of Drosophila melanogaster with 10 samples.

Results

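Wild-type dacapo was overexpressed in Drosophila melanogaster embryos and compared with a driver-only control, using 4 of the 10 polyA RNA libraries of the series. Control embryos carried the prospero-Gal4 driver over a chromosome without a UAS transgene (pros-Gal4/+, libraries control 1 and control 2), and dap embryos carried the same driver with UAS-dap (libraries dap 1 and dap 2). All embryos were whole, at stages 15 to 16, and raised at 25 °C, and the labels call the 2 libraries of a genotype independent samples. The other 6 libraries, 2 each of dapCRL4, dapPCNA and dapCDI, carried the driver with a dacapo form that the labels call stabilized. They entered the estimate of the spread and served as a second reference. Of 15422 genes in the table, 10396 reached 1 RPKM (reads per kilobase and megaread mapped) in at least 2 of the 10 libraries and were tested. How many embryos and matings lie behind a library is not given, so the p-values measure the spread between these samples.

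Dacapo belongs to the p21/p27 family of proteins and binds and inhibits the kinase complex of Cyclin E and Cdk2. That complex drives entry into S phase, in part by relieving the Rb family's hold on the transcription factor E2F, whose targets include genes of DNA replication and nucleotide synthesis. In the embryonic nervous system dap is switched on as neural precursors make their last division, and the homeodomain protein Prospero enters the daughter cells of neuroblasts. The yeast activator Gal4 under prospero control drives a UAS transgene only in cells that use that promoter. Any response in those cells is therefore read against the RNA of muscle, epidermis, gut and fat body, and in whole embryos fewer cells of a type and less RNA per cell cannot be told apart.

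The transgene's own gene came first. The control libraries held 70.5 and 70.7 RPKM of dap (2R, 9712321 to 9716256, BDGP6), and the dap libraries held 85.8 and 83.4 RPKM. Both dap libraries lay above both controls, and the increase was 1.20-fold, a log2 change of 0.26 ± 0.07 (SE; limma adjusted p = 0.0405). After a correction for exon length, described next, the log2 change was 0.22 with a limma adjusted p of 0.0522, and the call ended when any control, dap, dapCRL4 or dapPCNA library was left out. The dapCRL4 and dapPCNA libraries held 70.7 to 81.0 RPKM of dap, and the dapCDI libraries held 170 and 156 RPKM. Whether reads of the transgene count towards dap is not given.

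Changes followed the exon length of the genes. Genes were split into 5 equal groups by exon length. In the shortest group, with 46 to 1044 exonic bases, the median log2 difference from the control mean was 0.27 in dap 1 and 0.28 in dap 2. It was −0.11 in dap 1 and −0.30 in dap 2 in the longest group, with 3960 to 69810 bases. Spearman's rho between length and the log2 change was −0.571 over the 10202 genes with a length, all read from the same libraries. In the shortest group 400 genes were called higher and 24 lower, against 8 higher and 214 lower in the longest group. The log2 difference of dap from the mean of the stabilized forms also followed length, with a rho of −0.456. For the stabilized libraries against the control mean, rho ran from −0.107 in dapPCNA 1 to −0.582 in dapCDI 1. The fit was therefore repeated after a smooth trend on exon length was removed from each library, which also removes any real difference that follows length. Estimated depth was 25.5 and 25.0 megareads in the control libraries and 20.6 and 20.8 in dap. The part of length and depth in any single result was not tested.

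**Figure D1:**
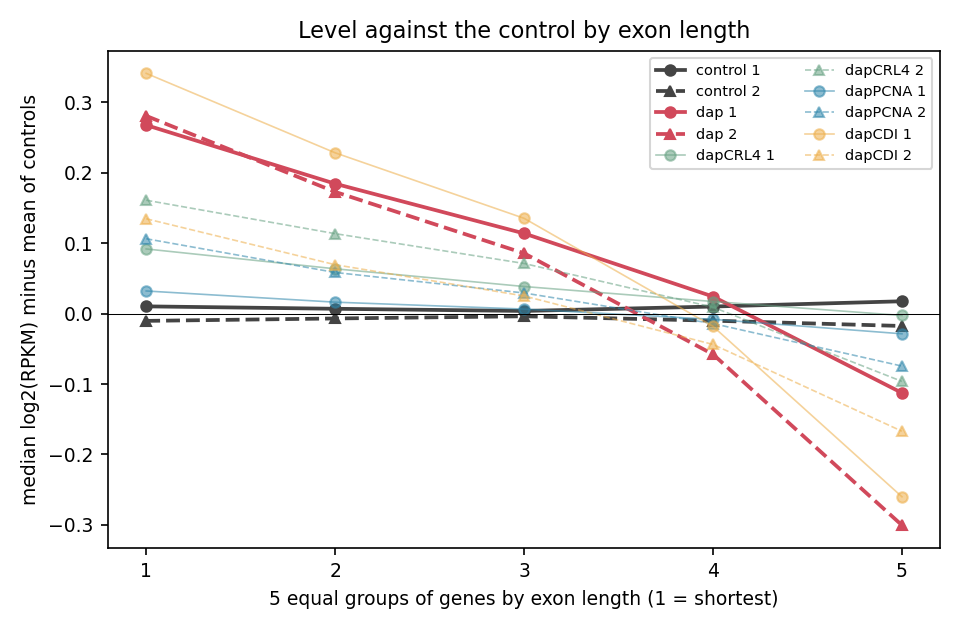
Median log2(RPKM) minus the mean of the 2 controls (vertical axis) for the genes in 5 equal groups of exon length (horizontal axis, shortest to longest), with 1 line per library. Both dap lines (red) run from 0.27 and 0.28 in the shortest group to −0.11 and −0.30 in the longest, with dap 2 the lower of the pair there.

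The defining markers of nerve, glia and other tissues gave the following picture. The pan-neuronal RNA-binding gene elav stood at 50.8 and 47.0 RPKM in the control libraries and 43.3 and 28.7 RPKM in dap. pros, whose promoter names the driver, stood at 21.0 and 20.6 against 17.2 and 13.4 RPKM. Both are long genes and neither was called (limma adjusted p = 0.148 and 0.0750), and after length correction their log2 changes were −0.12 and 0.08. The glial gene repo lay between 19.9 and 24.4 RPKM in all 4 libraries. The salivary gland gene PH4alphaSG1 rose from 30.0 and 32.0 to 38.5 and 41.9 RPKM (limma adjusted p = 0.0339, and 0.0840 after length correction). Its call ended without either control or without dap 2. Of 20 tested genes of the salivary gland and trachea, 1 was called higher, PH4alphaSG1, and 3 lower. Over all genes 8.53% were higher and 3.27% lower. The muscle gene Mhc is given with its list. The hemocyte gene Hml, at 0.0549 to 0.111 RPKM, was below the filter. The dosage compensation RNAs roX1 and roX2, which are made in males, were not called.

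In dap against the control 1227 of 10396 genes were called at a limma adjusted p under 0.05, or 11.8%. Of these 887 were higher (8.53% of the genes tested) and 340 lower (3.27%), so 72.3% of the calls were higher, against 56.5% under quantile normalization and 55.5% after length correction. The median log2 change of all genes was 0.06. Length correction left 346 calls (3.33%), of which 192 were higher and 154 lower, and 263 genes were called both ways. Single libraries weighed heavily: 180 of the 1227 calls were kept without control 1, 63 without control 2, 585 without dap 1 and 66 without dap 2. Without dap 1 the share of higher calls was 44.7%. Leaving out a library also lowers power, so a lost call does not show that the library decided it.

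A core of 49 genes (0.471% of those tested) was called with any 1 of the 10 libraries left out and after length correction, 41 of them higher and 8 lower in dap. Of these 37 differed at least 2-fold. CG31219 (3R, 19651018 to 19652430) stood at 0.935 and 0.839 RPKM in the control and 14.5 and 13.3 RPKM in dap, 15.7-fold higher (limma adjusted p = 1.51e-07). CG8539 (3L, 7497211 to 7498831) stood at 0.402 and 0.273 against 5.15 and 5.98 RPKM, 16.7-fold higher (limma adjusted p = 3.14e-05). In both genes the libraries of the genotypes were far apart. CG31219 overlaps CG6184 in the annotation, and strand use is not given. Both genes were under 1 RPKM in the control libraries, as were y, Ir64a and p24-2 of the core, given below. These genes passed the filter only through libraries carrying a UAS transgene, where they are high. CG34437 (3R, 28283719 to 28284725) rose from 2.33 and 2.42 to 16.0 and 17.2 RPKM. CG17244 (now Gbp3, 3R, 22977270 to 22978164), named in the annotation as a growth-blocking peptide gene, rose from 5.26 and 4.54 to 23.5 and 31.4 RPKM. These changes were 7.01-fold and 5.56-fold, each with a limma adjusted p of 3.14e-05.

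Several members of the core have a known biochemical role. Ir64a, an ionotropic receptor used in the adult antenna for sensing acid, stood at 0.993 and 0.921 RPKM in the control and 4.46 and 6.09 RPKM in dap (5.45-fold; limma adjusted p = 0.000164). phr, the photolyase that repairs ultraviolet damage in DNA, stood at 4.09 and 3.74 against 16.6 and 17.0 RPKM (4.29-fold; limma adjusted p = 1.07e-05). It overlaps the proteasome gene Prosalpha1 in the annotation, and since strand use is not given, reads of one may count for the other. The cytochrome P450 gene Cyp9c1 rose from 8.63 and 7.90 to 24.9 and 22.0 RPKM (2.83-fold; limma adjusted p = 4.95e-05), and it overlaps an antisense RNA gene. The immune-induced peptide gene IM1 (now BomS1) rose from 5.06 and 4.30 to 14.0 and 16.3 RPKM (3.23-fold; limma adjusted p = 0.000164). Cpr51A, a cuticle protein gene, rose from 158 and 147 to 292 and 311 RPKM (1.98-fold; limma adjusted p = 0.000157). Low and high expressed genes were thus both represented in the core.

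Among the 8 core genes that fell, Cralbp, named after the retinaldehyde-binding protein of vertebrates, stood at 91.2 and 79.0 RPKM in the control and 42.8 and 37.3 RPKM in dap (2.12-fold lower; limma adjusted p = 0.000452). CG9989 (now Sid) stood at 14.3 and 13.8 against 6.53 and 6.61 RPKM (2.14-fold lower; limma adjusted p = 0.00107). CG14985 stood at 18.2 and 14.9 against 6.43 and 5.99 RPKM (2.66-fold lower; limma adjusted p = 0.00148). The 4 libraries of each of these genes fell into separate ranges by genotype. CG33128 had the lowest level of the group in dap, at 0.988 and 0.627 RPKM against 3.60 and 3.48 (4.49-fold lower; limma adjusted p = 0.00148). PH4alphaSG2, a prolyl 4-hydroxylase subunit of the salivary gland, stood at 51.5 and 61.5 against 24.1 and 25.5 RPKM (limma adjusted p = 0.000164), opposite in direction to PH4alphaSG1. It overlaps PH4alphaMP in the annotation. The deepest falls of the core were in CG11700, from 9.43 and 7.05 to 1.26 and 0.872 RPKM (limma adjusted p = 0.00242), and in CG8100, from 8.11 and 8.88 to 1.71 and 1.91 RPKM (limma adjusted p = 0.00226).

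The core genes were then compared with the stabilized libraries. Of the 49 core genes, 43 were not called in dap against the mean of the 3 stabilized forms. Over all 10396 genes tested 74 (0.712%) were called in that comparison, so most genes of any kind were not. For CG31219 the 6 stabilized libraries lay between 11.1 and 12.9 RPKM, for phr between 10.3 and 19.1 RPKM and for Cralbp between 40.3 and 47.6 RPKM. On the log2 scale the stabilized libraries of each of these genes were nearer to dap than to the control. The 6 core genes that were called were IM1, Cyp9c1, Cpr51A, CG33128, the sulfotransferase gene St4 and CG31751. IM1 lay between 6.12 and 12.3 RPKM in the stabilized libraries, Cyp9c1 between 14.5 and 16.2, Cpr51A between 156 and 211, and CG33128 between 2.12 and 3.21. Both dap libraries were outside that range for each, with limma adjusted p values of 0.0258 for IM1, 0.0145 for Cyp9c1, 0.00445 for Cpr51A and 0.0103 for CG33128. CG30148, at 2.59 and 1.90 RPKM in the control and 22.5 and 21.5 in dap, ranged from 2.72 to 27.6 RPKM among the stabilized libraries and was not called against them (limma adjusted p = 0.0550). Without dap 2 each of the calls of IM1, Cyp9c1, Cpr51A and CG33128 against the stabilized forms ended, and that of IM1 ended after length correction as well (limma adjusted p = 0.0879).

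**Figure D2:**
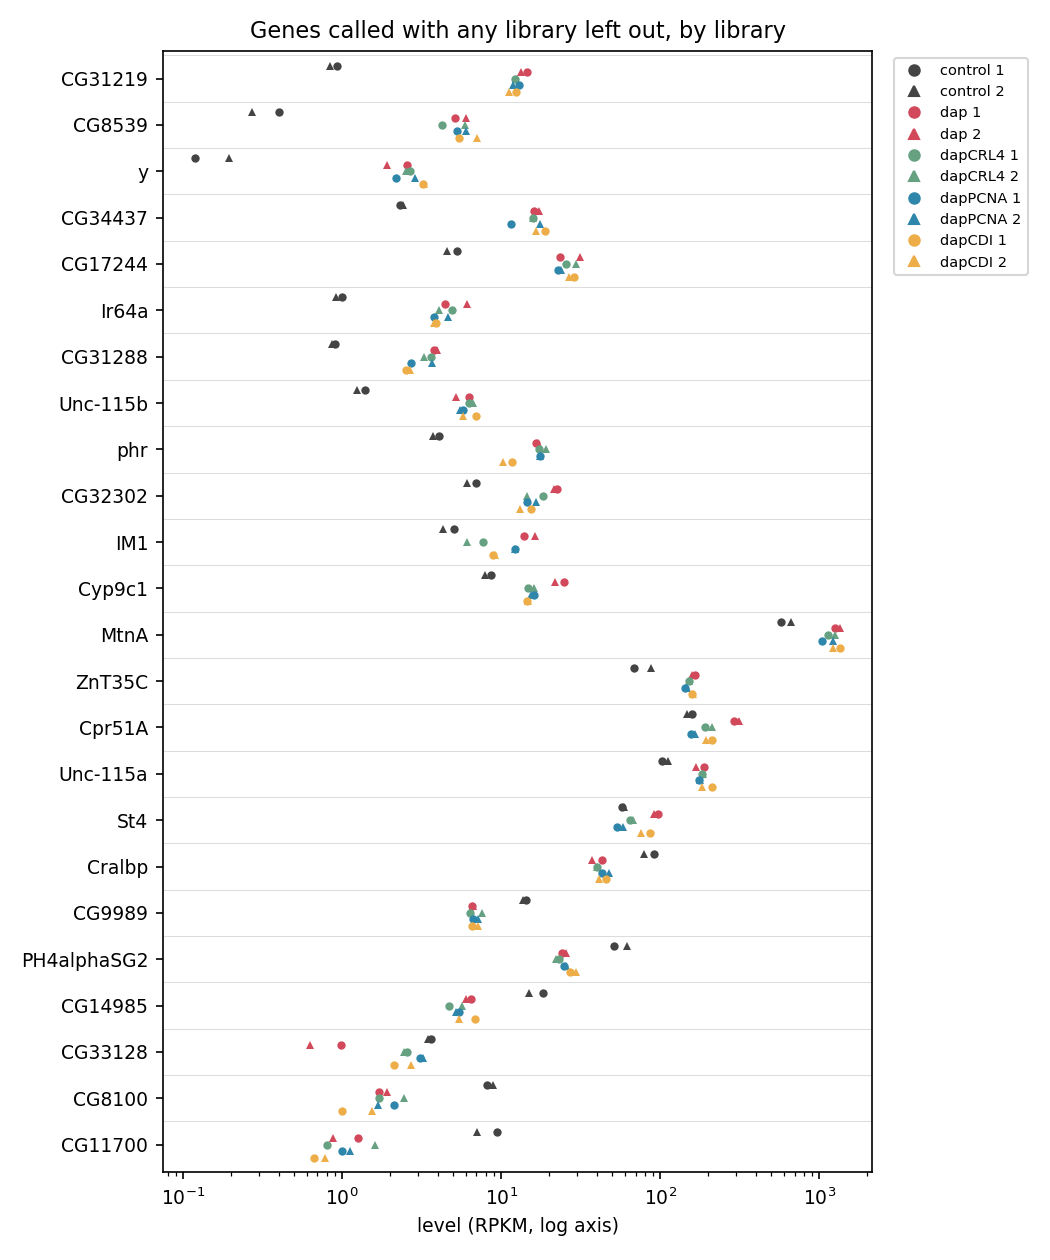
Level in RPKM (horizontal log axis) of 24 genes of the core, with 1 point per library and the genotypes offset vertically within a gene. Control points (dark) stand apart from dap points (red) in every gene shown, while the stabilized forms mostly lie near dap, with CG33128, Cpr51A and Cyp9c1 among the exceptions.

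The share of tested genes that belonged to the core differed between the chromosome arms and was largest on 3R. It was 23 of 2524 genes on 3R (0.911%), 10 of 1973 on 3L (0.507%) and 9 of 2109 on 2R (0.427%). On 2L it was 4 of 1893 (0.211%) and on X 3 of 1618 (0.185%), beside 0.471% over all genes. The small chromosome 4 held none among 85 tested genes. On 3R, Unc-115b, p24-2, Unc-115a, MtnA and CG8534 lay between positions 9687060 and 9813939. Unc-115b and Unc-115a are related genes for an actin-binding protein, and p24-2 overlaps Unc-115b, so their reads may be shared. Unc-115b stood at 1.39 and 1.24 RPKM in the control and 6.25 and 5.18 RPKM in dap, and Unc-115a at 103 and 112 against 189 and 168 RPKM. For p24-2 the control libraries gave 0 and 0.0539 RPKM and the dap libraries 12.8 and 9.62 RPKM. All 3 were higher in dap, and the 6 stabilized libraries were at the dap level, at 5.49 to 6.96, 175 to 211 and 12.3 to 16.1 RPKM. The pigment gene y on the X chromosome, used as a strain and transgene marker, stood at 0.119 and 0.195 RPKM in the control, 2.54 and 1.91 RPKM in dap and 2.18 to 3.28 RPKM in the stabilized libraries (limma adjusted p = 0.000149 against the control). Of the 11 strain and transgene markers tested, 3 were called and all were higher, y with the alcohol and aldehyde dehydrogenase genes Adh and Aldh, and all 3 kept their call after length correction, when ry and f were also called higher. Strain background and the transgene cannot be told apart in these libraries.

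The partners of Dacapo themselves changed little. Of 18 tested genes for Dacapo, its cyclins and their kinases, dap alone was called, where 11.8% of all genes were called. Their median log2 change was 0.09, beside 0.06 over all genes. CycE stood at 13.4 and 11.2 RPKM in the control and 14.9 and 11.6 in dap. Its kinase Cdk2, listed under the older symbol cdc2c, stood at 20.5 and 20.1 against 26.2 and 22.6 RPKM, a log2 difference of 0.26 ± 0.11 (SE) that was not called (limma adjusted p = 0.126). For CycE the groups overlapped, and for cdc2c both dap libraries were above both controls. Of 11 genes of the E2F, Dp and Rb family none was called by limma, with a median of 0.11, and at an unadjusted p under 0.05 there were 1 higher and 2 lower, where 3411 of all 10396 genes passed.

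Among 16 subunits and adaptors of the ubiquitin ligases that act in the cell cycle, 4 rose and 1 fell. Over all genes 8.53% were higher and 3.27% lower. None of the 5 kept its call after length correction. Nedd8, the ubiquitin-like protein that activates Cullin ligases, rose from 33.9 and 32.1 to 50.4 and 44.2 RPKM (log2 change 0.52; limma adjusted p = 0.0191). CSN4, a subunit of the signalosome that removes Nedd8 from Cullins, rose from 24.1 and 24.6 to 31.1 and 30.3 RPKM (limma adjusted p = 0.0243). ago, the F-box gene that marks Cyclin E for destruction, fell from 43.5 and 43.7 to 36.0 and 33.4 RPKM (limma adjusted p = 0.0392). The other 2 that rose were Roc1a and Cks85A. None of the 5 calls was kept without control 1, without control 2 or without dap 2.

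Most genes of DNA replication stood higher in dap, and few of them passed the test. Of 43 genes for origin, helicase and fork proteins, 40 had a log2 change above 0, where 6031 of all 10396 genes did. Of the 43, 5 were called, all higher, a share near the 8.53% higher over all genes. The median was 0.24, and 0.17 after length correction, beside 0.06 and −0.00 over all genes. Pole2, a subunit of DNA polymerase epsilon, stood at 5.26 and 4.72 RPKM in the control and 8.63 and 8.60 in dap, a log2 change of 0.79 (limma adjusted p = 0.0141, and 0.0255 after length correction). DNApol-alpha60 (now Prim2), the large primase subunit, stood at 8.38 and 6.70 against 12.98 and 11.6 RPKM (log2 change 0.71; limma adjusted p = 0.0221, and 0.0433 after length correction). Those were the only replication genes whose call held after that correction. Psf1, a subunit of the GINS helicase complex, stood at 9.81 and 10.9 against 18.3 and 17.8 RPKM (limma adjusted p = 0.0204). Fen1, the nuclease that trims Okazaki fragments, stood at 9.89 and 9.23 against 14.6 and 13.7 RPKM, and it overlaps IntS8 (limma adjusted p = 0.0247). mus209, the gene of the sliding clamp PCNA, stood at 86.2 and 69.8 against 114 and 108 RPKM (limma adjusted p = 0.0279). For all 5 genes both dap libraries were above both controls. Without control 1, 3 of the 5 calls were kept, without dap 1 there was 1, and none was kept without control 2 or without dap 2.

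Nucleotide supply moved the same way, with 3 of 17 tested genes higher and none lower, beside 8.53% higher over all genes. The median log2 change was 0.16 (0.12 after length correction). Ts, thymidylate synthase, stood at 8.60 and 8.28 RPKM in the control and 14.0 and 12.8 in dap (log2 change 0.67; limma adjusted p = 0.00903). It kept its call after length correction, at a limma adjusted p of 0.0255, and it overlaps Rbp9. Nmdmc, a mitochondrial folate enzyme, and dUTPase, which removes dUTP, were called as deposited and not after the correction. The call of Ts ended without control 2. Against the stabilized forms none of the replication or nucleotide genes was called. Of the 43 replication genes, 41 were above the stabilized mean, where 5920 of all 10396 genes were. The median log2 difference of the 43 was 0.19, beside 0.03 over all genes.

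**Figure D3:**
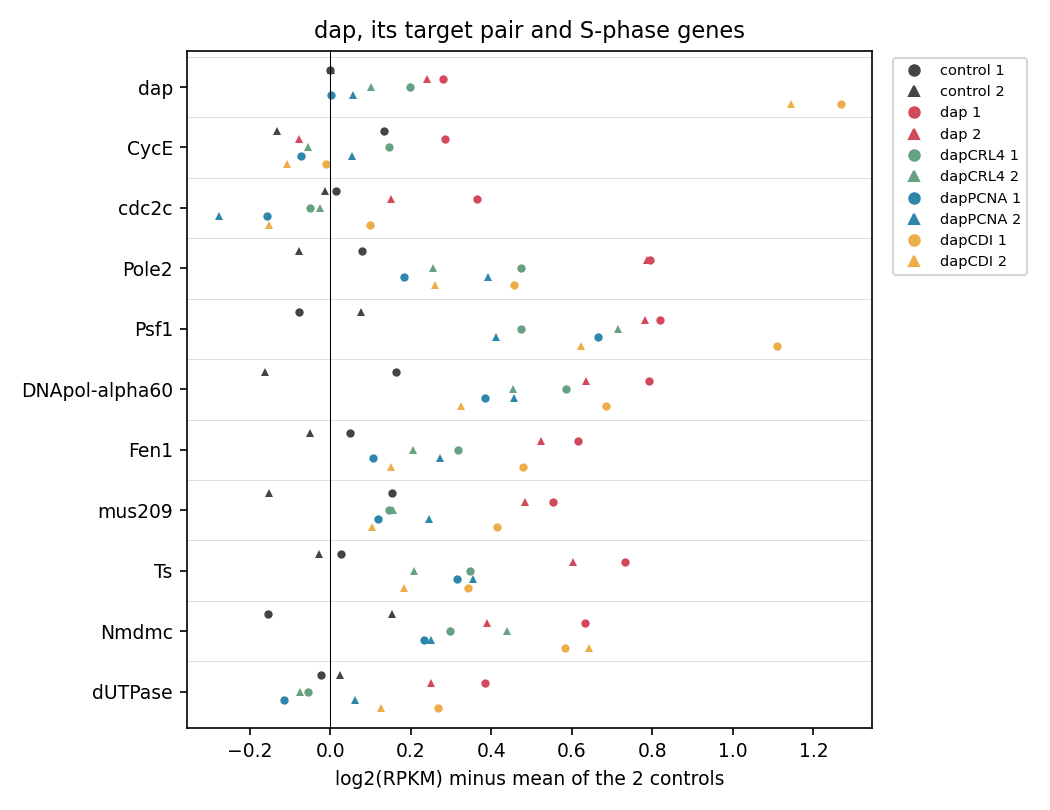
log2(RPKM) minus the mean of the 2 controls (horizontal axis) for dap, CycE, cdc2c (Cdk2), 5 replication genes and 3 genes of nucleotide supply, with 1 point per library. The dap points (red) lie to the right of both control points (dark) in the 8 replication and nucleotide genes, and the CycE points of the genotypes overlap.

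Mitotic genes stayed near the control in dap. Of 61 tested genes of mitosis and cytokinesis, none was called higher by limma (4 at an unadjusted p under 0.05) and 3 were called lower. Over all genes 8.53% were higher and 3.27% lower. The median log2 change of the list was −0.02 (−0.02 after length correction). Mis12, a kinetochore gene, fell from 5.05 and 4.42 to 2.47 and 2.10 RPKM (log2 change −1.05; limma adjusted p = 0.0243) and kept its call after length correction. cnn, a centrosome gene, and msps, a microtubule polymerase gene, fell by 0.39 and 0.43 on the log2 scale, and neither kept its call after that correction. Of the 3 calls, 1 was kept without control 1 and none without control 2 or without dap 2.

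Against the stabilized forms the same list looked different. In that comparison 74 genes were called (0.712% of 10396), 43 higher and 31 lower in dap. Of the 61 mitotic genes 7 were among them, all higher in dap. Above the stabilized mean were 53 of the 61, where 5920 of all 10396 genes were. The median log2 difference of the list was 0.35 (0.35 after length correction), beside 0.03 over all genes. The genes named in the next sentences were chosen after their values were seen. pav, a kinesin of the central spindle, stood at 4.31 and 4.52 RPKM in the control, 4.39 and 4.27 in dap and 1.93 to 2.49 in the 6 stabilized libraries (limma adjusted p = 0.0186 in dap against stabilized). tum, its RacGAP partner, stood at 8.25 and 7.38, 9.12 and 7.78, and 4.63 to 5.25 RPKM (limma adjusted p = 0.0177). sti, the citron kinase of the contractile ring, stood at 6.16 and 5.90, 5.57 and 4.70, and 2.60 to 3.12 RPKM (limma adjusted p = 0.0189). In all 3 genes dap and control were close and every stabilized library was lower. CAP-D2, a condensin subunit, and ial (now aurB), the Aurora B kinase gene, were also called, with ial at 5.83 and 8.20 RPKM in dap against 2.27 to 4.32 in the stabilized libraries. The other 2 were Top2 and msd1, and msd1 was not called after length correction (limma adjusted p = 0.0582).

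CycA and fzy, which drive and end mitosis and belong to the cyclin list, were called in the same direction, though the call of fzy (limma adjusted p = 0.0404) ended after length correction (0.0570) and without any 1 library other than dapCDI 1. CycA stood at 38.2 and 33.7 RPKM in the control, 37.3 and 36.0 in dap and 23.5 to 28.0 in the stabilized libraries (limma adjusted p = 0.0186). The chromatin protein gene HmgD stood at 816 and 723, 860 and 835, and 493 to 623 RPKM (limma adjusted p = 0.00834), and kuk, a nuclear lamina gene, at 51.0 and 46.9, 48.2 and 44.4, and 27.5 to 35.0 RPKM (limma adjusted p = 0.0138). Hey, a target of Notch signalling in newborn neurons, stood at 8.03 and 8.08, 7.81 and 8.31, and 3.66 to 5.14 RPKM (limma adjusted p = 0.00921). For each of these genes both dap libraries lay above all 6 stabilized libraries. Without dap 1, 20 genes in all were called against the stabilized forms, and without dap 2 there were 5. The calls of pav, tum, sti, CAP-D2, ial and CycA ended without dapCRL4 1, and that of CycA also ended without dap 1 or without dap 2.

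**Figure D4:**
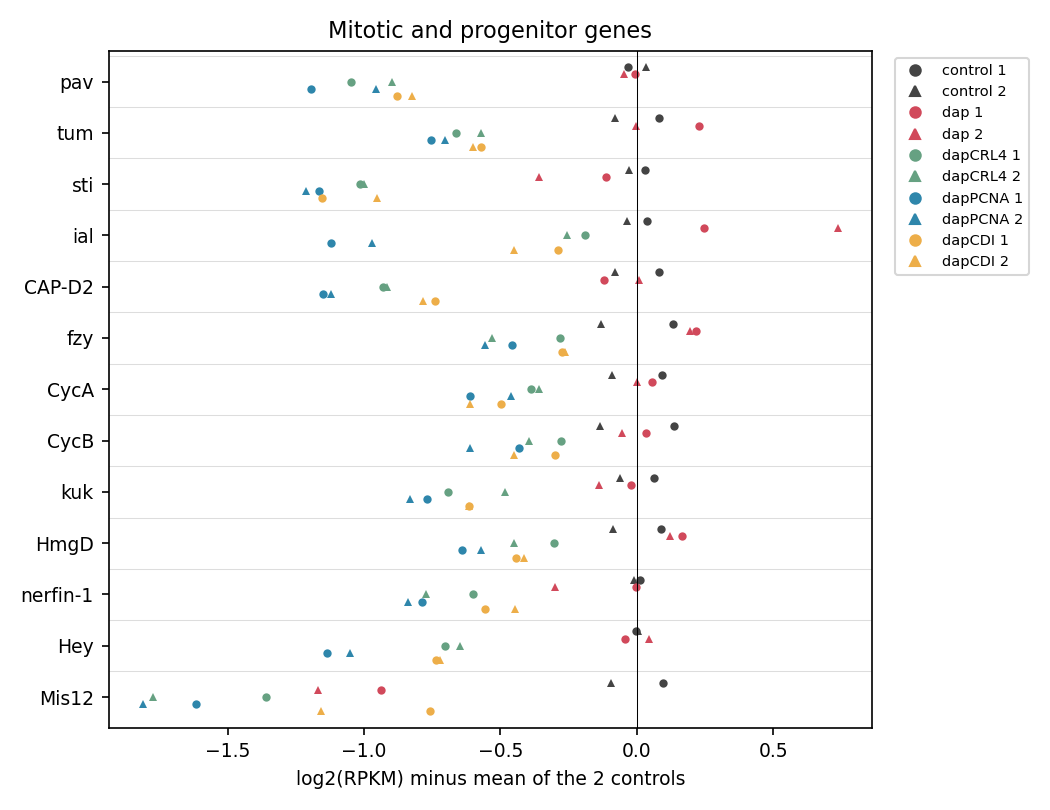
log2(RPKM) minus the mean of the 2 controls (horizontal axis) for 13 genes of mitosis and neural progenitors, with 1 point per library. In all but Mis12 the dap points (red) lie close to the controls (dark) or above them, and the 6 stabilized points lie to the left of both dap points.

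Genes of neuroblasts and their daughters gave 4 falls and no rise among 29 tested, where 3.27% of all genes were lower. Their median log2 change was −0.10 (−0.02 after length correction). svp, a nuclear receptor of the temporal series of neuroblasts, fell from 24.3 and 25.2 to 19.5 and 18.6 RPKM (limma adjusted p = 0.0239). brat, which is passed on to the neuroblast's daughter and restrains its growth, stood at 43.6 and 42.5 against 30.2 and 19.8 RPKM (limma adjusted p = 0.0402), with dap 2 well below dap 1. The others were grh and stau, and all 4 lost their call after length correction. svp was also lower than in the stabilized libraries, which held 21.1 to 29.0 RPKM (limma adjusted p = 0.0339). nerfin-1, a zinc finger gene of new neurons, was not called against the control but was higher than in the stabilized forms, at 30.3 and 24.7 RPKM against 17.0 to 22.3 (limma adjusted p = 0.0339). Both calls against the stabilized forms ended without any 1 library of control, dap, dapCRL4 or dapPCNA, that of svp also ended after length correction (limma adjusted p = 0.0561), and none of the 4 falls was kept without either control or without dap 2. Of 19 genes of the E(spl) complex and the Notch pathway, E[spl]m3-HLH rose and h fell, a share near the 11.8% called over all genes. Only h kept its call after length correction, and neither was kept without either control or without dap 2.

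Neuronal genes were lower on the deposited scale, and the calls did not hold once exon length was corrected. Among 43 pan-neuronal and synaptic genes 5 had a log2 change above 0, where 6031 of all 10396 genes did. Of the list 4 were called lower, where 3.27% of all genes were lower. The 4 were ple, tyrosine hydroxylase of dopamine synthesis, the potassium channel Shab, the microtubule protein futsch and the sense organ matrix gene nompA. The median log2 change was −0.34 as deposited and −0.12 after length correction, and none of the 4 kept its call then, nor without either control or without dap 2. After length correction 2 other genes of the list, fne and Shal, were called higher and none lower. These are long genes, with a median exon length of 6612 bases against 2002 over all genes. ple stood at 109 and 116 RPKM in the control and 97.7 and 74.8 in dap. The summed level of the list was 2518 and 2412 RPKM in the control and 2239 and 1982 in dap, with dap 2 the lowest of the 4. Of 21 neuropeptide and peptidergic genes, with a median exon length of 1249 bases, none was called by limma (1 higher and 1 lower at an unadjusted p under 0.05). In glia 1 of 21 genes rose, CG31235, and 2 fell, mbc and pnt, beside 8.53% higher and 3.27% lower over all genes. None of them was called after length correction, without either control or without dap 2. The median log2 change of the glial list was −0.05, and 0.02 after length correction, where loco alone was called, as higher.

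In muscle 1 of 29 tested genes rose and 4 fell, beside 8.53% higher and 3.27% lower over all genes. The median log2 change was −0.07, and it was 0.04 without control 2 and 0.03 without dap 1. Mlp60A, a LIM protein of the sarcomere, rose from 1983 and 2168 to 2800 and 3130 RPKM (log2 change 0.51; limma adjusted p = 0.0197) and kept its call after length correction. Mhc, the myosin heavy chain, stood at 818 and 900 against 657 and 725 RPKM, and the stabilized libraries held 894 to 1001 RPKM. Mhc was called against the control (limma adjusted p = 0.0360) and against the stabilized forms (limma adjusted p = 0.0209), but after length correction its log2 change against the control was −0.00 and its limma adjusted p against the stabilized forms was 0.297. The giant kinase bt and the myoblast adhesion genes kirre and sns also fell as deposited, and bt turned to a log2 change of 0.25 with length corrected, and was not called there. None of the 5 calls in muscle against the control was kept without either control or without dap 2. Against the stabilized forms Mhc, bt and Prm were called, all 3 lower in dap, beside 74 of all 10396 genes. The call of bt (limma adjusted p = 0.0138) ended after length correction (limma adjusted p = 0.364). Those of Mhc and bt also ended without dap 1 or without dap 2. Of the 29 genes 2 were above the stabilized mean, where 5920 of all 10396 genes were. The median log2 difference of the 29 was −0.26 (−0.24 after length correction).

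Basement membrane genes held the largest share of falls among the tissue lists. Of 22 hemocyte and basement membrane genes 10 fell and none rose, against 3.27% lower over all genes, with a median log2 change of −0.21 (−0.12 after length correction). Ppn, the matrix protein papilin, fell from 242 and 247 to 179 and 168 RPKM (limma adjusted p = 0.0103), and the laminin chain LanA from 271 and 269 to 196 and 208 RPKM (limma adjusted p = 0.0192). srp, the GATA factor of hemocytes and fat body, stood at 60.1 and 66.04 against 47.4 and 45.3 RPKM (limma adjusted p = 0.0205). Both dap libraries were below both controls in all 3 genes. The other 7 were the peroxidase Pxn, Tig, the collagen IV chains Cg25C and vkg, trol, LanB1 and LanB2. The list's median exon length was 4094.5 bases and none of the 10 kept its call after length correction. Without dap 2 there was 1 of the 10 calls left, and without control 2 none. Of 10 fat body genes 1 rose, Adh, and 3 fell, the lipid carrier genes CG15828 and Rfabg with srp, and none of those 3 kept its call after length correction. The fat body median was −0.21 as deposited and 0.04 after the correction, and none of its calls was kept without control 2 or without dap 2.

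Among 73 genes of the mitochondrial ribosome 35 were called higher and none lower, against 8.53% higher over all genes. All 73 had a log2 change above 0, where 6031 of all 10396 genes did. mRpL49 stood at 72.7 and 70.1 RPKM in the control and 91.9 and 99.4 in dap (limma adjusted p = 0.0152), and mRpS16 at 80.8 and 80.3 against 108 and 128 RPKM (limma adjusted p = 0.0171). Of 71 genes of oxidative phosphorylation 45 rose and none fell. CG10320 (now ND-B12), a subunit of complex I, stood at 233 and 219 against 302 and 325 RPKM (limma adjusted p = 0.0141). The list medians were 0.35 for the mitochondrial ribosome and 0.32 for oxidative phosphorylation, and 0.09 and 0.08 after length correction. None of the calls in these lists was kept after that correction, without control 2 or without dap 2.

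Among 25 spliceosome genes 9 rose, 33 proteasome subunits 5, and 90 cytosolic ribosomal protein genes 4, with no falls, where 8.53% of all genes were higher. The share of calls among the cytosolic ribosomal protein genes was below that background. Still, 88 of the 90 had a log2 change above 0 as deposited, where 6031 of all 10396 genes did. SmG, a core protein of the snRNPs, which stood at 114.9 and 116 RPKM in the control and 163 and 160 in dap, was called after length correction, but it has no matched exon length and so was not corrected. The other calls of the 3 lists were lost after the correction. Prosalpha1 and its near copy CG30382 carried identical values in all libraries, so their reads cannot be assigned to one or the other. For the cytosolic ribosomal proteins the median log2 change was 0.18 as deposited and −0.07 after length correction, so its direction depends on that choice. None of the calls in these 3 lists was kept without either control or without dap 2. The cytosolic ribosomal protein genes summed to 306911 and 321644 RPKM in the control and 330832 and 384511 in dap.

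**Figure D5:**
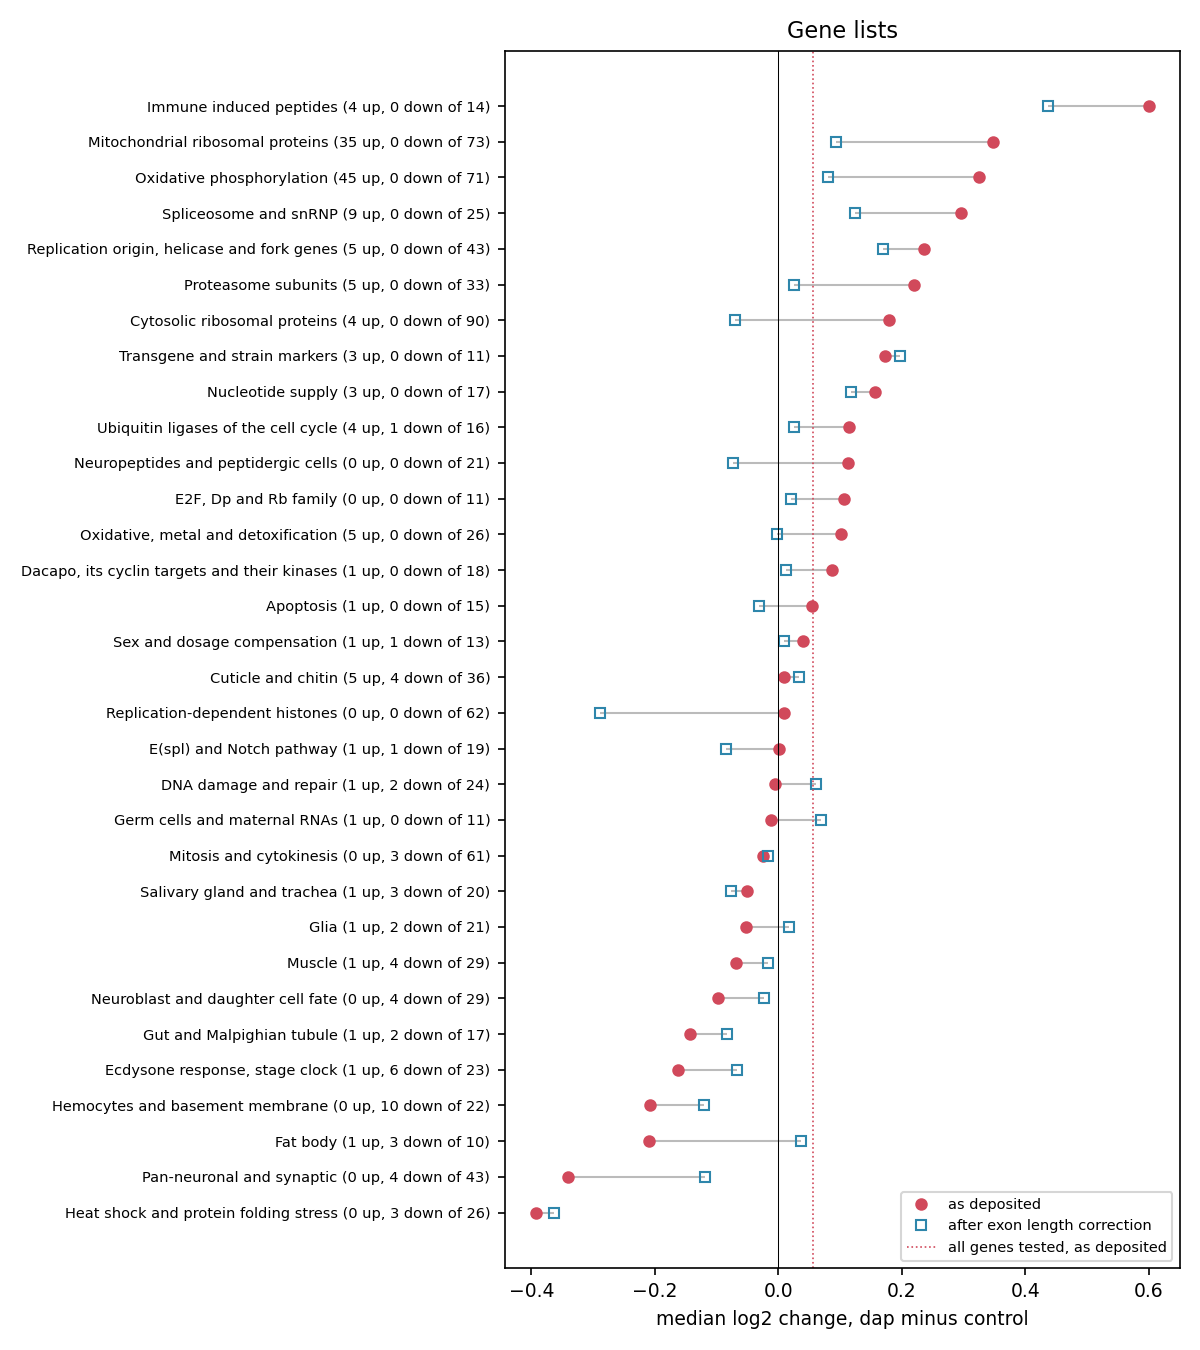
Median log2 change in dap against the control (horizontal axis) for each gene list, as deposited (filled circles) and after exon length correction (open squares), with the numbers of called genes beside each name. The mitochondrial ribosome moves from 0.35 to 0.09, the pan-neuronal list from −0.34 to −0.12 and replication from 0.24 to 0.17. The median exon lengths of these lists are 783, 6612 and 2135 bases, beside 2002 over all genes.

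Of 26 genes of oxidative stress, metals and detoxification 5 were called, all higher, where 8.53% of all genes were higher, and MtnA and ZnT35C belonged to the core. MtnA, a metallothionein, stood at 577 and 668 RPKM in the control and 1246 and 1350 in dap (2.09-fold; limma adjusted p = 0.000550). ZnT35C, a zinc transporter, stood at 68.2 and 87.7 against 165 and 158 RPKM (2.09-fold; limma adjusted p = 0.000486). The stabilized libraries were at the dap level for both, at 1043 to 1347 and 144 to 160 RPKM. The remaining calls were the glutathione transferase GstD3, the mitochondrial superoxide dismutase Sod2 and the copper transporter Ctr1B, none of which was called after length correction. The median log2 change of the list was 0.10, and −0.00 after length correction, when MtnA and ZnT35C were called higher and GstD9 and Gadd45 lower. MtnA and ZnT35C were the only calls of the list kept without control 2 or without dap 2.

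Immune-induced genes had the highest list median, a log2 change of 0.60 over 14 tested genes (0.44 after length correction). Without control 1 it was 0.14. Of these 4 rose and none fell, where 8.53% of all genes were higher, and all 4 kept their call after length correction. Besides IM1 they were IM2 (now BomS2), at 10.7 and 14.1 RPKM in the control and 26.5 and 31.8 in dap (limma adjusted p = 0.00540), PGRP-LB, at 1.499 and 1.87 against 4.75 and 3.76 RPKM (limma adjusted p = 0.0141), and CG16712 (now IM33), at 26.2 and 21.5 against 41.2 and 45.1 RPKM (limma adjusted p = 0.0179). PGRP-LB is an amidase that degrades bacterial peptidoglycan. Both dap libraries were above both controls in each gene. Of the 4 calls, 2 were kept without control 2 and 1, that of IM1, without dap 2. The summed level of the list, 330 and 382 RPKM in the control and 339 and 355 in dap, did not separate the genotypes.

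Heat shock genes stood lower in dap, with a median log2 change of −0.39 over 26 genes (−0.36 after length correction). Of the 26, 4 had a change above 0, where 6031 of all 10396 genes did. The 3 called genes all fell, beside 3.27% lower over all genes, and none was kept without either control or without dap 2. After length correction Hsp27 and Hsf were still called and Hsp83 was not (limma adjusted p = 0.0563). Hsp27, a small heat shock protein, stood at 604 and 435 RPKM in the control and 226 and 119 in dap (limma adjusted p = 0.0241), Hsp83 at 985 and 695 against 539 and 452 RPKM (limma adjusted p = 0.0336), and the transcription factor Hsf at 174 and 180 against 139 and 112 RPKM (limma adjusted p = 0.0350). The replicates of Hsp27 and Hsp83 differed widely within each genotype, and the median of the list was −0.20 without control 1 and −0.27 without dap 2. Of 15 apoptosis genes 1 was called, the cell death activator rpr, which rose from 37.8 and 36.8 to 49.8 and 52.3 RPKM (limma adjusted p = 0.0381, and 0.128 after length correction). After length correction rpr was not called and the caspase gene Nc was called lower. Of 24 DNA damage and repair genes phr rose and Xrp1 and mus210 fell, with 11.8% of all genes called. The calls of Xrp1 and mus210 ended after length correction (limma adjusted p = 0.260 and 0.186) and without either control or without dap 2, so that phr was the only call of the list kept.

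Genes of the embryo's late development moved in both directions. Of 36 cuticle and chitin genes 5 rose and 4 fell, beside 8.53% higher and 3.27% lower over all genes. Of these 9 calls 4 were kept after length correction, when 3 genes were called higher and 2 lower. Cht2, a chitinase, rose from 68.4 and 73.2 to 88.0 and 89.8 RPKM (limma adjusted p = 0.0191), and TwdlW, a cuticle protein, fell from 22.7 and 27.8 to 16.7 and 13.3 RPKM (limma adjusted p = 0.0191). Both kept their call after length correction and lost it without control 2 or without dap 2. Of 23 ecdysone response genes, which follow the stage of the embryo, 1 rose and 6 fell, against the same 3.27% lower over all genes. Their median log2 change was −0.16 (−0.07 after length correction). ImpL2, a secreted antagonist of insulin-like peptides, fell from 324 and 344 to 256 and 205.4 RPKM (limma adjusted p = 0.0169), and it alone of the 7 kept its call after length correction. ImpE2 rose from 1331 and 1206 to 1593 and 1789 RPKM (limma adjusted p = 0.0283). None of the 7 was kept without either control or without dap 2. The part of a difference in stage was not tested. Of 17 genes of the gut and Malpighian tubule 1 rose and 2 fell, with a median log2 change of −0.14 (−0.08 after length correction). ct, a homeobox gene of the tubules, stood at 27.5 and 27.2 RPKM in the control and 21.0 and 13.9 in dap (limma adjusted p = 0.0374), and neither ct nor srp, the other fall, was called after length correction. kappaTry, a trypsin gene of the gut, kept its call then and rose from 1.57 and 1.00 to 3.65 and 3.26 RPKM (limma adjusted p = 0.0145). bcd alone was called among 11 germ cell and maternal genes, at 1.19 and 1.44 against 2.42 and 2.99 RPKM (limma adjusted p = 0.0419). The calls of kappaTry, ct and bcd ended without control 2 or without dap 2.

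Other genes separated wild-type dap from both references. In total 39 of 10396 genes were called in dap against the control and against the stabilized forms with the same sign, 22 higher and 17 lower. Both comparisons use the same 2 dap libraries, so the 2 calls of a gene are not independent. Nos, nitric oxide synthase, stood at 5.07 and 6.51 RPKM in the control, 3.11 and 2.67 in dap and 3.78 to 6.07 in the stabilized libraries (limma adjusted p = 0.0145 and 0.0359). GRHRII (now CrzR), the corazonin receptor, stood at 6.50 and 6.03, 3.83 and 4.02, and 5.47 to 6.39 RPKM (limma adjusted p = 0.0145 and 0.0339). In both genes dap was below every other library. CG42305 and CG17325, which share the same stretch of 2L and cannot be told apart without strand, stood in dap at 23.9 and 18.8 and at 21.4 and 20.003 RPKM, below every other library. In the other direction sala stood at 99.3 and 101 RPKM in the control, 125 and 153 in dap and 81.2 to 95.7 in the stabilized libraries (limma adjusted p = 0.0252 and 0.0138). CG34163 stood at 39.1 and 32.6, 54.7 and 60.8, and 30.7 to 46.0 RPKM (limma adjusted p = 0.0161 and 0.0326). All of these calls against the control ended without control 2 or without dap 2, and all of those against the stabilized forms without dap 2. After length correction Nos was not called against the stabilized forms (limma adjusted p = 0.0570).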

How the data were processed

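Whole-embryo polyA RNA was read as single reads of 50 nt. The authors deposited 1 table of log2 RPKM values, mapped to BDGP6 per the submitters' processing notes. No aligner, counting tool, annotation release or strand setting is given in the sources used here. A gene with no read carries a floor of −9.10916 and is printed as 0 RPKM. Depth was estimated from genes at 1 read, to a tolerance of 0.01 reads, and used only as a description. Sequencing gave 20.7 to 43.4 megareads a sample, per the labels.

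Names were matched to the BDGP6 annotation, 11819 as current symbols and 3322 as older ones, while 281 had no unique match and stayed in all tests. The genes tested were fitted as deposited in limma 3.58.1 (R 4.3.3), with 1 mean for each of 5 genotypes over all 10 libraries, a mean-variance trend, a median of 9.73 total degrees of freedom and Benjamini-Hochberg adjustment over 10396 genes. Calls are at an adjusted p under 0.05, two-sided. Length correction subtracted a lowess trend (span 0.3) of each library's deviation on log exon length, and 98.1% of the genes tested had a length. Genes without one were left as deposited.

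Named genes were dap with its cyclins and kinases, the 15 largest changes in each direction among genes called as deposited and after length correction, up to 4 called genes per list and direction, the 8 largest called against both references, and the 3 highest expressed. The text leaves some out, and the other genes it names were chosen with their values in view. The members and gene lists were chosen with earlier results of these data known, and some older symbols in the lists were matched after the table was seen. Same-numbered replicates did not deviate together (correlations −0.118 to 0.194), so replicate number was not a block. Alternatives were log2(RPKM + 1), other filters, quantile normalization, median centring, no trend, the block, only the genotypes compared, length correction and leaving out each library. 1 gene that the naming rule made eligible is not reported here and was left out of its list.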

Additional observations from a re-analysis of the deposited data

How the results depend on the processing

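Of the 1227 genes called in dap against the control, the count moved to 292 without a filter, 193 without a mean-variance trend and 346 after length correction. Leaving out 1 library gave 68 (without control 2) to 2225 (without dapCDI 1). The other settings gave 889 (replicate block) to 1550 (mean of at least 5 RPKM). Against the stabilized forms the 74 calls became 126 at a mean of at least 5 RPKM, 132 under quantile normalization, 14 without a trend and 35 with only the genotypes compared, and 5 (without dap 2) to 547 (without dapCDI 1) with 1 library left out. The 346 calls after length correction ranged from 71 (without control 2) to 598 (without dapCDI 2), with 357 at a span of 0.6. The replicate numbers share only a number, and a replicate block gave 889 calls against the control, 45 against the stabilized forms and 314 with length correction. After length correction the log2 changes of bt, Rfabg and Hr46 turned to 0.25, 0.0896 and 0.0066. Over all settings and the single genes eligible for naming, 2570 values kept their side of the threshold. A further 891 kept the direction and lost the call, and 2 gained it. The 2570 include values of genes called in neither fit, whose direction could change. An example is pros, at −0.45 as deposited and 0.08 after length correction. Of the list medians 596 moved by less than the replicate spread and 43 by more. The causes of the other shifts were not tested. With 2 libraries per genotype and 20.6 to 25.5 megareads, differences near the replicate spread (median 0.0955 log2 in the control and 0.127 in dap) could not be shown.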

Other observations

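Some detoxification genes that stayed near the control in dap were higher in the stabilized forms. These genes were chosen with their values in view. The cytochrome P450 gene Cyp4p2 stood at 10.7 and 11.1 RPKM in the control, 9.49 and 11.1 in dap and 14.5 to 32.4 in the 6 stabilized libraries (limma adjusted p = 0.00445 in dap against stabilized). Cyp9b2 stood at 1.97 and 1.77, 2.41 and 1.38, and 3.17 to 7.69 RPKM (limma adjusted p = 0.0219), and Cyp4p1 at 1.01 and 1.31, 1.25 and 1.24, and 1.53 to 4.15 RPKM (limma adjusted p = 0.0284). The glutathione transferase gene GstD8 stood at 0.790 and 0.558, 0.904 and 0.972, and 1.68 to 3.07 RPKM (limma adjusted p = 0.0374). None was called in dap against the control, while every stabilized library was above both dap libraries. The call of Cyp4p2 was kept with any dap or stabilized library left out, and those of the other 3 ended without dap 2.

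Among highly expressed genes, the ribosomal protein gene RpL10 was called higher, at 5271 and 5339 against 6028 and 7006 RPKM (limma adjusted p = 0.0496). RpS26 was called higher as well. At lower levels than these, Nplp2 rose from 2351 and 2230 to 3150 and 3249 RPKM (limma adjusted p = 0.0204). In the other direction CG7224 (now Sirup) fell from 1877 and 2312 to 1480 and 1187 RPKM (limma adjusted p = 0.0189). CG7224 kept its call after length correction and Nplp2 did not, and the calls of CG7224 and Nplp2 ended without control 2 or without dap 2.

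His2Av, a variant histone outside the lists and also chosen with its values in view, was higher in dap than in both references. It stood at 440 and 427 RPKM in the control, 574 and 548 in dap and 400 to 502 in the stabilized libraries (limma adjusted p = 0.0192 and 0.0337). It did not keep its call against the control after length correction, without either control or without either dap library. Of 62 replication-dependent histone genes, whose RNAs lack a polyA tail and are read poorly here, none was called by limma, and none passed at an unadjusted p under 0.05.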
